A study of Mus musculus with 17 samples.

Results

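The 10 genes described here, of glycolysis and of the response to low oxygen, were followed in cells sorted from mouse lung tumors: *Hif1a*, *Slc2a1*, *Hk2*, *Aldoa*, *Pgk1*, *Pkm*, *Ldha*, *Pdk1*, *Vegfa* and *Bnip3*. They were chosen by name, and all 10 were present among the 16410 genes listed for tumor cells, the 13545 listed for TRMs and the 13407 listed for MDMs, the last pair being macrophage populations as the study abbreviates them. KL mice carried alleles that form lung tumors once Cre recombinase acts on them, with *Lkb1*fl/fl, a tumor suppressor gene that Cre removes, as 1 of these. KLG4 mice carried the same alleles plus *Gpx4*m/m, a modified allele from which exons of *Gpx4*, a lipid peroxide reductase, can be removed once Cre has switched on another recombinase that tamoxifen activates. That recombinase is driven by the CAG promoter, which is active in most cell types, and no cell-type promoter is named for the Cre of the virus. Mice of both genotypes received an adenovirus carrying Cre (Ad-Cre) through the nose and then tamoxifen, and cells were collected 10 weeks after Ad-Cre. The deletion was designed for tumor cells, so the macrophages of KLG4 mice are cells from a host whose tumor carried it. Each population was profiled by RNA sequencing in 2 KL and 2 KLG4 libraries. For tumor cells the study counts as many mice in a group as there are libraries. For TRMs and MDMs the labels do not say which mice a library came from, so p-values there measure only the spread between libraries, which may be technical.

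Glycolysis breaks glucose down to pyruvate. Glucose enters through transporters such as SLC2A1, is trapped by hexokinases, is split by aldolase, and is then carried through phosphoglycerate kinase and pyruvate kinase, which make ATP, to lactate dehydrogenase. HIF1A is the oxygen-regulated subunit of the transcription factor HIF-1. It is hydroxylated and destroyed when oxygen is plentiful, so its protein need not follow its mRNA, and when stable it binds DNA at a short core, ACGTG or GCGTG, and raises many glycolytic genes together with *Pdk1*, *Vegfa* and *Bnip3*. In tumors, these genes are read as marks of glucose use and of poor oxygen supply.

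The promoters show where that core lies in these genes. RefSeq promoter windows of 300 bases (250 before and 50 after a transcription start, build GRCm38.p6) matched all 10 genes, in 16 windows because several genes have more than 1 start. ACGTG, read on either strand and so also as CACGT, was present in 10 of these 16 windows and in 19.6% of all 32851 windows. GCGTG, also read as CACGC, was present in 6 of 16 and in 32.4% of all windows. Either was present in at least 1 window of all 10 genes, and over all genes in 46.7%. The stretches below are shown because they hold the letters by which these genes are usually joined into a set. They run from 15 bases before the first match to 15 after the last, or to the window's end, on the strand of the gene, with matches in capitals. Where CACGTG stands, the matches of both strands overlap.
Ldha, chr7:46845644-46845853, plus strand: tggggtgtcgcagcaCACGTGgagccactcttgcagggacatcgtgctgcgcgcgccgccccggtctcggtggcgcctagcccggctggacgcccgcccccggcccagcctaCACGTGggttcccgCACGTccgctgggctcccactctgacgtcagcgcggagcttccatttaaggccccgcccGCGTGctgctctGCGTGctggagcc
Pgk1, chrX:106186935-106186988, plus strand: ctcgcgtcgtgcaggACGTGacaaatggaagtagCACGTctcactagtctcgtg
Bnip3, chr7:138909522-138909638, minus strand: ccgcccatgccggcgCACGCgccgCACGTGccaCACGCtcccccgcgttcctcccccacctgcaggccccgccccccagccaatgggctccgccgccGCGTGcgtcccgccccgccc
Slc2a1, chr4:119108669-119108728, plus strand: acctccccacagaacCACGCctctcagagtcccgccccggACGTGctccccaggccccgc
Hif1a, chr12:73907717-73907816, plus strand: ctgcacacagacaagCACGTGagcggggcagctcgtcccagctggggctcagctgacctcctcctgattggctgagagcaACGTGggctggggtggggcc
Hk2, chr6:82774487-82774695, minus strand: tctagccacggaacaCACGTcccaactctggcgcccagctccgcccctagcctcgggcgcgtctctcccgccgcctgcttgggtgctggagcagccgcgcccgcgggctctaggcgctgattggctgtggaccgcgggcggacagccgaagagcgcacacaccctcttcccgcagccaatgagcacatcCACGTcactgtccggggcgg
The *Ldha* window held 5 ACGTG matches counted by strand and 2 GCGTG matches, and that of *Pgk1* held 2 of ACGTG alone. *Ldha* and *Pgk1* fell in KLG4 tumor cells and *Hif1a* and *Hk2* rose, as given in the tests below, so genes of both directions carried the core. A match of letters is a description of these windows and does not show binding.

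The libraries held 9140000 to 36620000 counted reads. Library markers were checked against the labels before the genes were compared. *Gpx4*, counted over all its exons including those that stay, was at 94.95 and 76.8 RPKM in KL and at 56.4 and 61.9 in KLG4 tumor cells, and in TRMs at 53.8 and 57.0 in KLG4 against 89.8 and 88.2 in KL (−0.68 on the log2 scale, adjusted p = 0.0697 by limma). In MDMs it lay higher in KLG4 (93.6 and 97.7 against 44.9 and 71.3; 0.76 on the log2 scale, adjusted p = 0.679 by limma). RPKM divides the reads of a gene by its length in kilobases and by library depth. Tumor cells had been sorted as EpCAM+ cells without CD31, and the gate is given as CD45- in most descriptions of these cells but as CD45+ in some of the methods text. All 6 markers of epithelium were lower in KLG4 tumor cells, with summed levels of 8322 and 6179 RPKM in KL against 3572 and 3580. All 6 leukocyte markers were higher (12.5 and 14.1 against 121 and 125), as were all 6 macrophage (225 and 284 against 844 and 879), neutrophil (179 and 272 against 2258 and 2161) and fibroblast markers (10.6 and 15.7 against 369 and 369), and none of them was at 0. The MDM libraries carried more neutrophil than macrophage marker RNA, 10648 to 23306 against 1206 to 2781 RPKM, and the label was kept as given. KL replicate 2 stood apart among MDMs, with the lowest neutrophil sum and the highest epithelium sum (255 RPKM against 18.4 to 72.1). *Xist*, which is made in female cells, was at 0.26 and 0.50 RPKM in KL TRMs and at 18.3 and 20.2 in KLG4 TRMs, so that in TRMs sex and genotype cannot be told apart. Among MDMs it was 0.84 in KL replicate 2 and 19.4 to 21.8 in the other 3 libraries.

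Levels per length set the 10 genes in a broadly shared order. In KL tumor cells *Vegfa* was highest at 226 ± 23.1 RPKM (SD, n = 2), followed by *Pkm* at 188 ± 12.1, *Aldoa* at 187 ± 32.5 and *Ldha* at 149 ± 29.2, and the libraries of *Pkm*, *Aldoa* and *Ldha* overlapped as neighbours. *Pgk1* (82.2 ± 14.2) and *Hif1a* (43.6 ± 0.53) stood apart below them, and *Hk2* (21.2 ± 0.66), *Bnip3* (21.0 ± 0.21) and *Slc2a1* (19.1 ± 4.90) overlapped. *Pdk1*, a kinase that inhibits pyruvate dehydrogenase, was lowest at 1.90 ± 0.018. In these cells the mRNA levels of *Pkm*, *Aldoa*, *Ldha* and *Pgk1* were thus several times those of *Slc2a1* and *Hk2*. *Pdk1* was the lowest of the 10 in every group.

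The order in macrophages differed mainly in *Vegfa*, which encodes the chief growth factor for blood vessels. *Pkm* was highest in both TRM groups (180 ± 26.3 in KL and 196 ± 0.43 RPKM in KLG4) and in both MDM groups (315 ± 64.4 and 337 ± 6.75). *Vegfa* was in the sixth place in KL TRMs, at 17.2 ± 3.37 RPKM, but in the second in MDMs, where it reached 334 ± 58.8 in KLG4 and overlapped *Pkm*. Over the 6 groups the mean of *Vegfa* ranged 19.4-fold, against 5.33-fold for *Slc2a1* and 1.76-fold to 3.88-fold for the other 8 genes. *Bnip3*, a mitochondrial protein that promotes the removal of mitochondria, and *Aldoa* ranged least, by 1.76-fold and 1.79-fold. Populations came from tables normalised apart from each other, so these ranges carry no test, and in bulk RNA a smaller share of a cell type and less RNA per cell cannot be told apart.

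**Figure D1:**
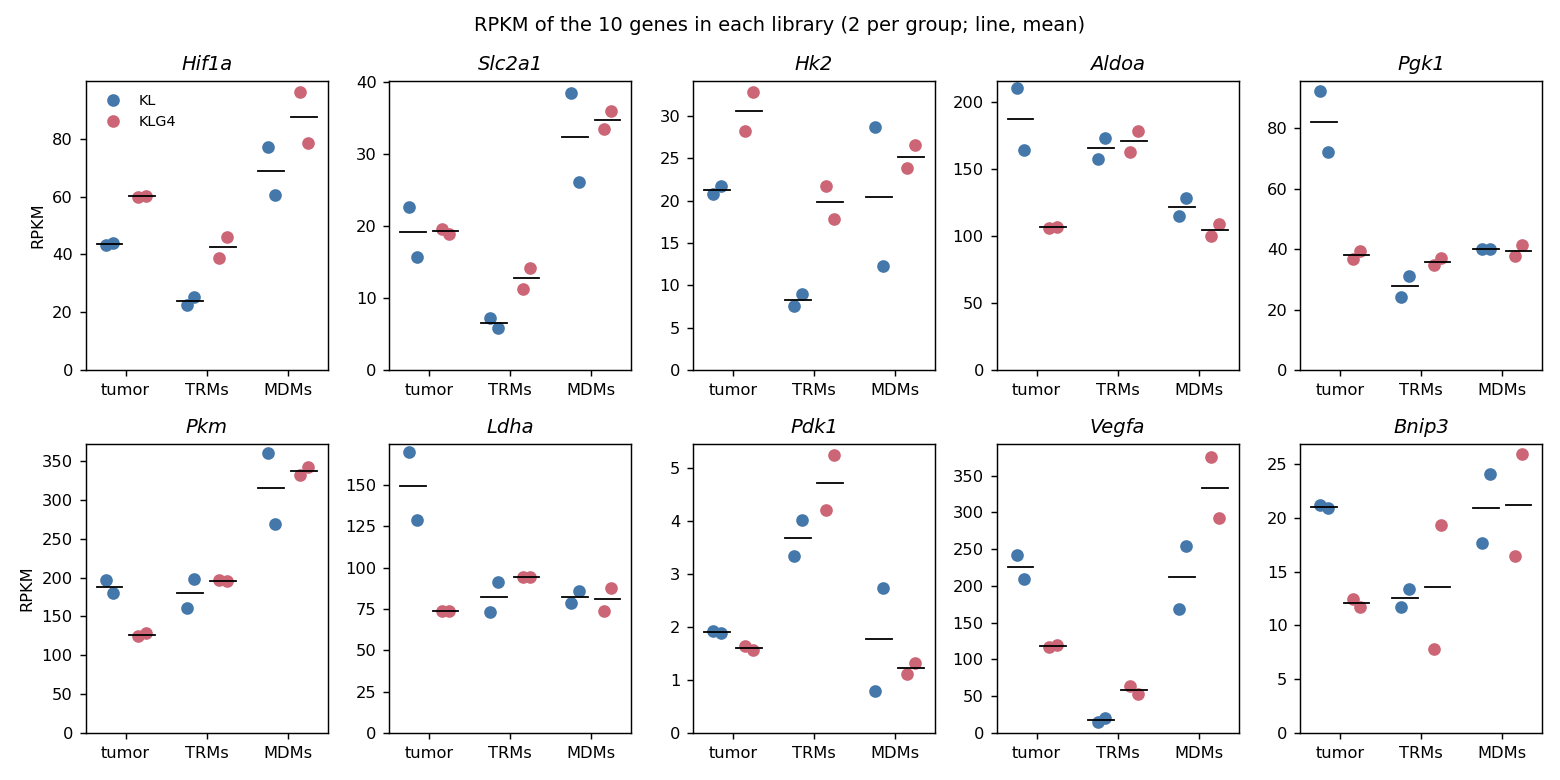
RPKM (linear axis from 0) of each of the 10 genes in the 12 libraries, by population and genotype; points are libraries and lines are means of 2. In tumor cells *Aldoa*, *Pgk1*, *Pkm*, *Ldha*, *Vegfa* and *Bnip3* lie lower in both KLG4 libraries, whereas *Vegfa* in TRMs lies at 63.7 and 52.5 RPKM in KLG4 against 14.8 and 19.6 in KL.

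The KLG4 tumor cell libraries held less mRNA, per counted read, of the splitting, energy-yielding and lactate-forming enzymes of glycolysis. They held more of *Hk2*, which acts at its entry. The same libraries had lower epithelium and higher leukocyte and fibroblast marker sums, as given above. Of the 10 genes, 6 fell (*Aldoa*, *Pgk1*, *Pkm*, *Ldha*, *Vegfa*, *Bnip3*), 2 rose (*Hif1a*, *Hk2*) and 2 did not pass the test (*Slc2a1*, *Pdk1*), at an adjusted p under 0.05 in limma, with Benjamini-Hochberg adjustment over all 13770 genes tested. This table moved widely, since 19.6% of all tested genes were called lower, 20.6% higher and 40.3% in either direction. The median log2 fold change was −0.68 over the 10 genes and −0.09 over all genes tested. KL and KLG4 libraries did not overlap for 9 of the 10 genes, against 74.7% of all tested genes. Leaving out KLG4 replicate 1, or KLG4 replicate 2, left 2 genes called lower, *Pgk1* and *Ldha*, and 0 called higher, with the lone KLG4 library assumed to vary like the KL pair. In these fits 7.69% and 7.07% of all tested genes were called lower, and 7.99% and 7.72% higher.

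*Pgk1*, the phosphoglycerate kinase that makes the first ATP of the pathway, stood at 92.2 and 72.2 RPKM in the KL libraries and at 36.9 and 39.3 in the KLG4 libraries. The groups did not overlap, and the fall was the largest of the 10 (log2 fold change −1.10 ± 0.15 SE, adjusted p = 0.00406 by limma). *Ldha*, which turns pyruvate into lactate, followed with 170.0 and 129 RPKM in KL against 73.6 and 73.7 in KLG4 (−1.01 ± 0.16, adjusted p = 0.00636 by limma). The KLG4 libraries were nearly equal and both lay below the lower KL library. *Aldoa*, the main aldolase, was at 210 and 164 RPKM in KL and at 106 and 107 in KLG4 (−0.80 ± 0.15, adjusted p = 0.0110 by limma). *Pkm*, pyruvate kinase, was at 197 and 180 in KL and at 125 and 128 in KLG4 (−0.57 ± 0.11, adjusted p = 0.0127 by limma). For these 4 enzymes KL replicate 1 was the higher of the KL pair each time, while the KLG4 pair differed little.

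Counting affects some of these values. *Pgk1* has a processed copy, *Pgk1-rs7*, that was listed at 7.95 and 5.16 RPKM in KL and at 1.90 and 2.18 in KLG4 tumor cells, so part of its reads could belong to either. Reads were counted without strand, and 15.3% of the exon bases of *Pkm* and 22.3% of those of *Bnip3* also lie in exons of another annotated gene, against at most 8.11% for the other 8. The *Pgk1* gene lies at chrX:106187100-106203699 and *Ldha* at chr7:46841475-46855627 (GRCm38), and neither shares exon bases with another gene.

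*Vegfa* and *Bnip3*, 2 HIF targets outside glycolysis, fell with the enzymes. *Vegfa* stood at 242 and 210 RPKM in KL tumor cells and at 117 and 120 in KLG4 (−0.93 ± 0.12, adjusted p = 0.00335 by limma), the smallest adjusted p of the 10. *Bnip3* was at 21.2 and 20.9 in KL and at 12.5 and 11.7 in KLG4 (−0.80 ± 0.12, adjusted p = 0.00571 by limma). Neither gene overlapped between genotypes. *Pdk1* was at 1.92 and 1.89 in KL and at 1.65 and 1.57 in KLG4, which also did not overlap, but on 194 to 546 reads per library the difference did not pass the test (−0.23, 95% interval −0.71 to 0.25, adjusted p = 0.373 by limma).

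The 2 genes that rose were *Hk2* and *Hif1a*. *Hk2*, the inducible hexokinase, was at 20.7 and 21.7 RPKM in KL and at 28.2 and 32.9 in KLG4 tumor cells (0.52 ± 0.13, adjusted p = 0.0288 by limma). *Hif1a* was at 43.3 and 44.0 in KL and at 59.8 and 60.4 in KLG4 (0.46 ± 0.11, adjusted p = 0.0215 by limma), and libraries of a genotype lay close together. Without the variance trend neither rise passed the threshold (adjusted p = 0.0592 for *Hk2* and 0.0593 for *Hif1a* by limma), and with the replicate number as a block that of *Hif1a* did not (adjusted p = 0.0508 by limma). *Slc2a1* was at 22.6 and 15.7 RPKM in KL and at 19.5 and 19.0 in KLG4, and the KL libraries enclosed the KLG4 pair (0.03, 95% interval −0.47 to 0.53, adjusted p = 0.912 by limma). The interval of *Slc2a1* leaves room for a difference in either direction.

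**Figure D2:**
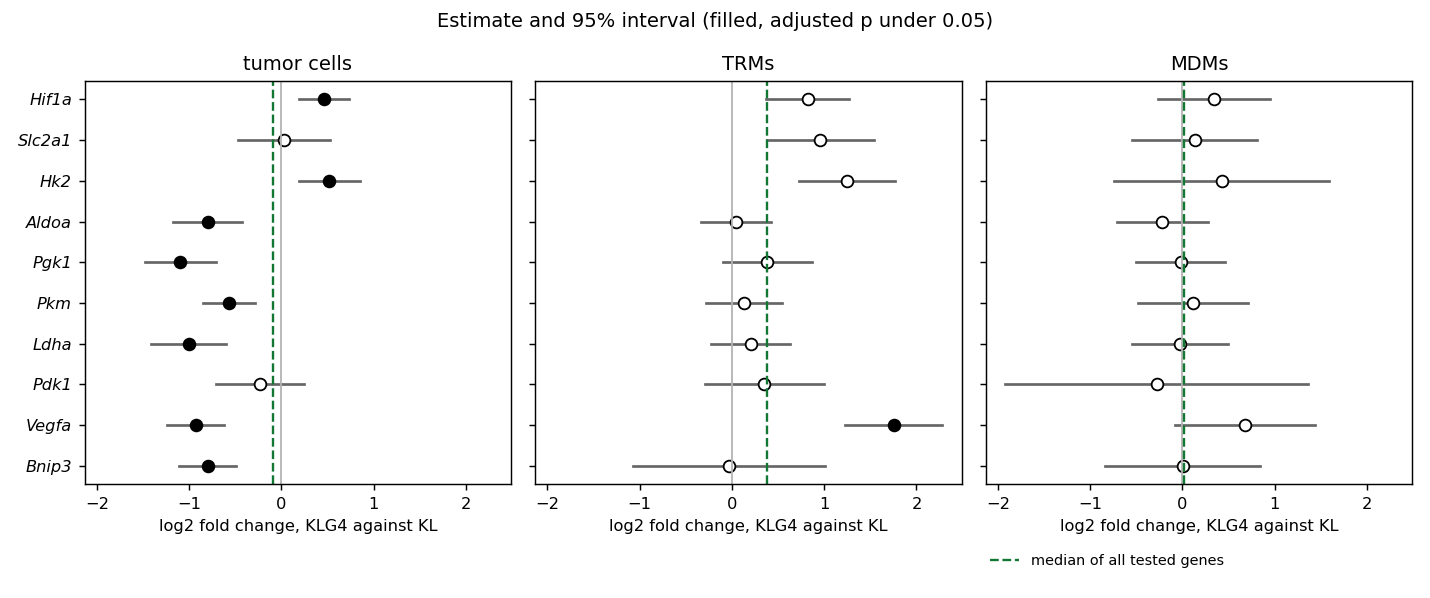
Log2 fold change of KLG4 against KL on log2(RPKM + 0.1), with the 95% interval from limma, for the 10 genes in each population (n = 2 libraries a genotype); filled points have an adjusted p under 0.05 and the dashed line is the median of all tested genes. Filled points lie on both sides of 0 in tumor cells, *Vegfa* alone is filled in TRMs, and none is filled in MDMs.

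These differences moved together with the makeup of the tumor cell libraries. The fall of the epithelium markers in KLG4, to 0.403 times the KL mean for *Epcam* and up to 0.552 times for *Cdh1*, was close in size to that of the 6 genes that fell, which stood at 0.464 to 0.673 times the KL mean. To set them side by side, each gene was divided by the summed RPKM of the 6 epithelium markers of its own library, a ratio that a single scaling factor per library leaves as it is and that was added after the data were seen. *Ldha* then stood at 20.4 and 20.8 RPKM per 1000 RPKM of markers in KL and at 20.6 in both KLG4 libraries, a ratio of 0.998. *Vegfa* stood at 1.05 times KL, *Pgk1* at 0.936, *Bnip3* at 1.14, *Aldoa* at 1.15 and *Pkm* at 1.34.

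On the same measure *Hk2* stood at 2.85 times KL, *Hif1a* at 2.73, *Slc2a1* at 2.05 and *Pdk1* at 1.67, with no overlap between genotypes in any of these 4. With *Aldoa* and *Pkm*, 6 of the 10 lay higher in both KLG4 libraries, against 82.9% of all tested genes. With libraries rescaled to the epithelium markers, limma called 0 of the 10 genes lower and 3 higher, *Hk2*, *Hif1a* and *Slc2a1*, against 1.81% of all tested genes called lower and 54.1% called higher, while the median of all genes rose to 0.88 and the median of the 10 was 0.32. Of the 6 genes that fell per counted read, *Pgk1* still lay lower in both KLG4 libraries relative to the summed markers (10.3 and 10.98 against 11.1 and 11.7). It also lay lower relative to *Krt8* (0.877 times KL) and *Krt19* (0.914 times). It overlapped relative to *Krt18* (0.975 times) and lay higher relative to *Epcam* (1.13 times). *Cdh1* and the remaining epithelium marker were not used singly. *Ldha* lay lower in both relative to *Krt8* only, at 0.934 times KL. The epithelium markers may themselves have changed within tumor cells, and how much the other cells in the libraries contributed to each gene was not tested.

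**Figure D3:**
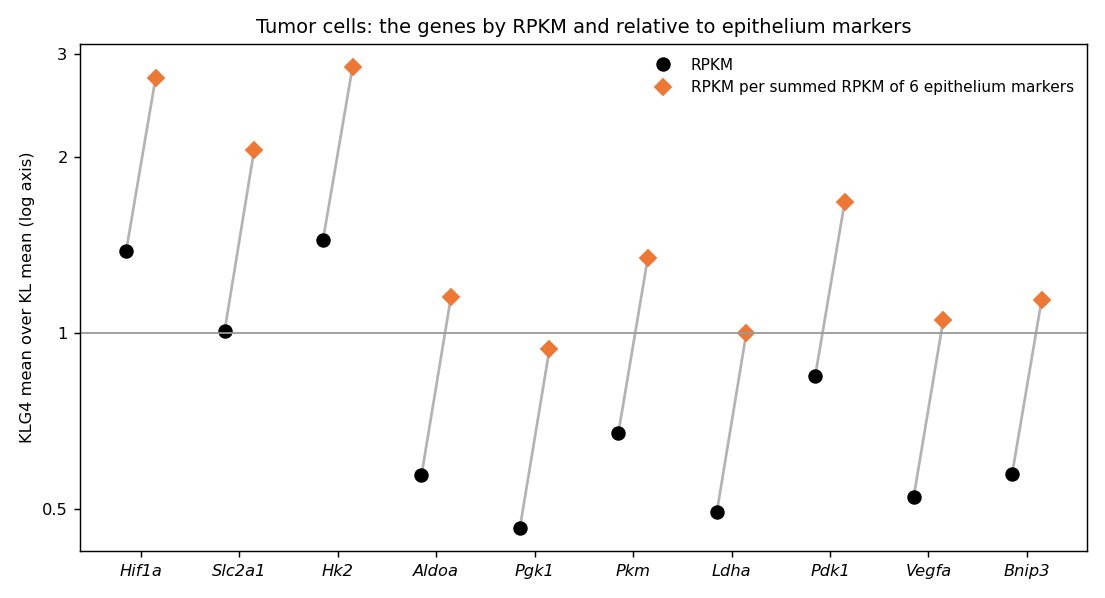
KLG4 mean over KL mean in tumor cells (log axis, 1 is no difference) for the 10 genes, by RPKM (circles) and by RPKM per summed RPKM of 6 epithelium markers of the same library (diamonds); each is a ratio of means of 2 libraries. *Ldha* moves from 0.493 to 0.998 and *Hk2* from 1.44 to 2.85.

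Paralogs of the same enzyme allowed a comparison within each library. In KL tumor cells *Slc2a1* made up 98.6% and 94.7% of the summed RPKM of *Slc2a1* and *Slc2a3*, the latter a high-affinity glucose transporter that blood cells and neurons use, and in KLG4 it made up 49.7% and 48.6%. The shift came from *Slc2a3*, which was at 0.32 and 0.88 RPKM in KL and at 19.7 and 20.01 in KLG4 and rose by 4.96 ± 0.41 on the log2 scale (adjusted p = 0.000755 by limma). *Slc2a3* made up 51.4% to 73.0% of the pair in MDMs and 0.76% to 9.64% in TRMs, the MDM libraries being those with more neutrophil than macrophage marker RNA. The level of *Slc2a1* itself had not passed the test.

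Hexokinases shifted too. *Hk2* was 58.3% and 53.3% of the summed RPKM of *Hk1*, *Hk2* and *Hk3* in KL tumor cells and 63.2% and 65.8% in KLG4. *Hk3*, typical of myeloid cells, went from 0.38% and 1.44% to 12.9% and 10.9% (rise of 3.84 ± 0.51 on the log2 scale, adjusted p = 0.0035 by limma), and *Hk1*, the widespread form, from 41.4% and 45.2% to 23.9% and 23.3%. *Hk3* was the largest of the 3 in all TRM and MDM libraries, at 49.8% to 68.7%. The share of *Hk2* was also higher in both KLG4 libraries in TRMs (42.5% and 42.2% against 32.9% and 36.2%). The same held for MDMs (23.7% and 25.3% against 19.7% and 20.6%). How often other genes shift their share in this way was not counted. Which cells carried the paralogs whose shares shifted was not tested for any family, and in TRMs sex cannot be told apart from genotype.

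*Ldha* went from 91.1% and 84.0% of the lactate dehydrogenase sum to 70.8% and 69.1% as *Ldhb*, the form typical of heart, was at 16.6 and 24.5 RPKM in KL and at 30.4 and 33.0 in KLG4 (0.65 ± 0.21, adjusted p = 0.0562 by limma). In TRMs the share of *Ldha* was also lower in both KLG4 libraries (94.6% and 91.4% against 96.5% and 97.2%), beside an estimate for *Ldhb* of 1.34 ± 0.31 on the log2 scale (adjusted p = 0.0752 by limma), and in MDMs it was 94.4% to 97.3% with overlap between genotypes. *Pdk1* was a small part of its family, at 6.78% to 8.41% in tumor cells, where *Pdk4* made up 57.0% to 69.9%. *Aldoa* was 98.9% to 99.4% of the aldolase pair with *Aldoc* in tumor cells. With 2 libraries against 2, an exact permutation test cannot reach a p under 0.333, so the shares are given without a test.

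**Figure D4:**
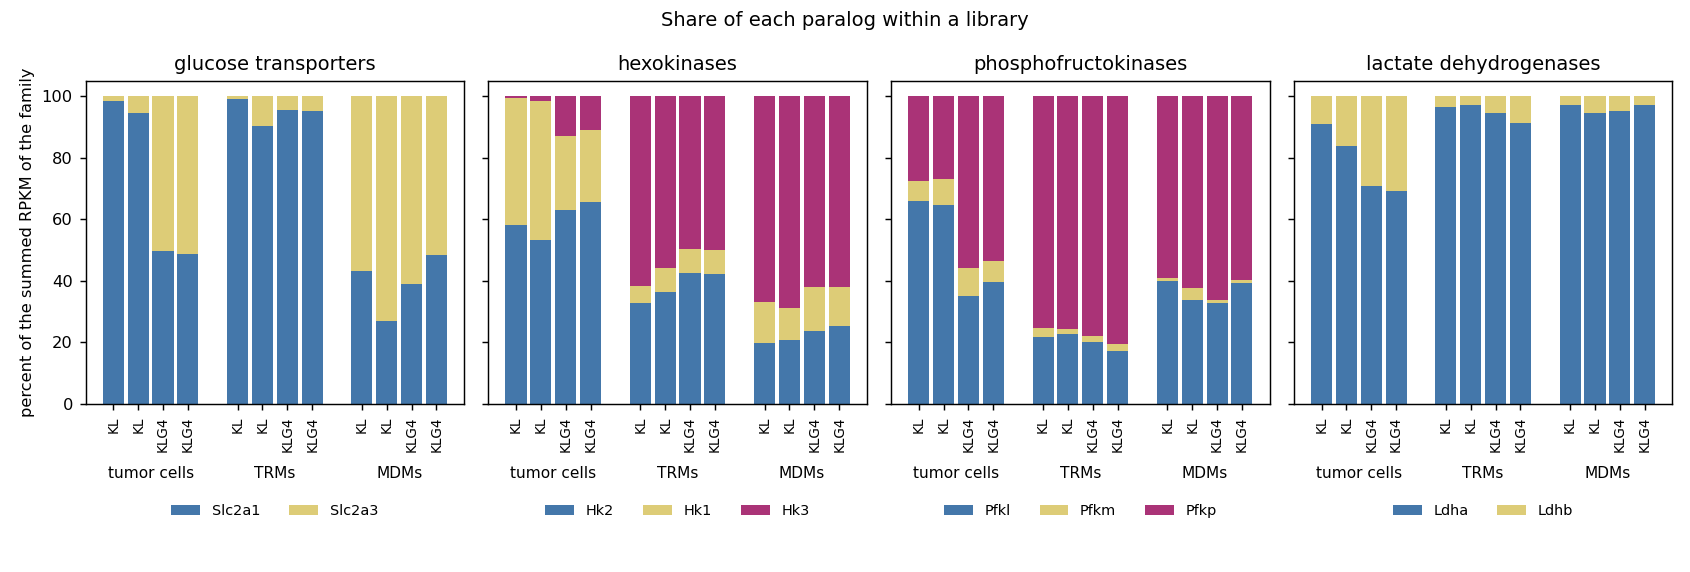
Percent of the summed RPKM of 4 enzyme families held by each paralog in the 12 libraries (stacked bars from 0 to 100, 1 bar a library). *Slc2a3* goes from at most 5.32% in KL to at least 50.3% in KLG4 tumor cells, and *Hk3* is the largest hexokinase in TRMs and MDMs.

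The rest of glycolysis also moved in both directions in tumor cells. Of 18 other glycolysis and lactate genes, 17 were tested, 7 fell and 5 rose, against 19.6% of all tested genes called lower and 20.6% called higher. The median was −0.44, against −0.09 over all genes tested. With libraries rescaled to the epithelium markers 0 fell and 7 rose, where 1.81% of all tested genes were called lower and 54.1% higher. Without the variance trend 4 fell. Without KLG4 replicate 1 or KLG4 replicate 2 the median was −0.42 or −0.56, and fewer genes were called. The 7 that fell, listed here after their values were seen, were *Hk1*, *Gpi1*, *Pfkl*, *Tpi1*, *Gapdh*, *Pgam1* and *Eno1*, which take part in steps from hexokinase to enolase. The 4 largest changes were all rises and include *Slc2a3* and *Hk3*, together with *Pfkfb3*, which makes the activator of phosphofructokinase (2.38 and 3.04 against 8.42 and 8.19 RPKM, 1.59 ± 0.18, adjusted p = 0.0021 by limma), and *Slc16a3*, a lactate exporter (2.03 and 1.88 against 5.32 and 5.54 RPKM, 1.43 ± 0.17, adjusted p = 0.00231 by limma). In the phosphofructokinases *Pfkl*, the liver form, went from 65.9% and 64.8% of the family sum to 34.9% and 39.5%, and *Pfkp*, the platelet form, from 27.4% and 26.9% to 55.9% and 53.4%.

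Other HIF genes did so too. Of 24 other hypoxia response genes, 22 were tested, 11 fell and 3 rose, with a median of −0.38. Over all tested genes 19.6% were called lower and 20.6% higher. Rescaled to the epithelium markers 1 fell and 9 rose, with a median of 0.60. Over all tested genes 1.81% were then called lower and 54.1% higher. Without KLG4 replicate 1 or KLG4 replicate 2 the median was −0.55 or −0.50, and fewer genes were called. *Car9*, a carbonic anhydrase widely used as a hypoxia mark, was at 5.05 and 6.39 RPKM in KL and at 0.96 and 1.42 in KLG4 tumor cells (−2.19 ± 0.26, adjusted p = 0.00223 by limma), and *Ankrd37* was at 15.2 and 11.3 against 4.68 and 4.65 (−1.47 ± 0.19, adjusted p = 0.00303 by limma). By contrast *Plod2*, a collagen lysyl hydroxylase, rose by 2.71 ± 0.27 (adjusted p = 0.00131 by limma) and *Adm*, which encodes the vasodilator adrenomedullin, by 1.70 ± 0.20 (adjusted p = 0.00218 by limma), both on the log2 scale. Of 9 HIF pathway regulators, 8 were tested, none was called lower and 3 rose, where 40.3% of all tested genes were called. Their median was 0.35, with 5 of the 8 estimates above 0. Rescaled to the epithelium markers 6 rose, against the same 54.1%. Without single libraries the median spanned 0.20 to 0.41, and the calls changed with the library left out. The 3 were *Egln3*, a prolyl hydroxylase that marks HIF for destruction (1.48 ± 0.18, adjusted p = 0.00246 by limma), *Cited2*, which competes with HIF1A for a coactivator (0.73 ± 0.12, adjusted p = 0.00778 by limma), and *Epas1*, which encodes the related subunit HIF2A (0.65 ± 0.12, adjusted p = 0.0109 by limma).

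For the mitochondrial and side branches, genes called with all libraries and no rescaling are again to be read against the whole table. There 40.3% were called, 19.6% lower and 20.6% higher. Of 17 genes of pyruvate entry and the citrate cycle, 3 fell (*Pdhb*, −0.85; *Pdk4*, −0.63; *Idh3a*, −0.57) and 1 rose (*Mpc1*, a subunit of the mitochondrial pyruvate carrier, 1.00), with a median of −0.15. Without single libraries the median spanned −0.22 to −0.14, and the number called lower changed with the library left out. Rescaled to the epithelium markers 0 fell and 11 rose, where 1.81% of all tested genes were called lower and 54.1% higher. Of 7 pentose phosphate genes, *Pgd* fell by 0.49 and *Taldo1* rose by 0.46 on the log2 scale. Rescaled to the epithelium markers 0 of the 7 fell and 3 rose, and their median went from −0.33 to 0.67. Neither of the 2 gluconeogenesis genes tested was called. In the VEGF family *Pgf*, placental growth factor, rose by 3.21 ± 0.19 (adjusted p = 0.00036 by limma), from 1.29 and 1.13 to 10.8 and 13.4 RPKM, while *Vegfa* fell. Among the receptors *Kdr* (1.41) and *Nrp1* (0.78) rose and *Flt1* fell by 0.86. The median of this list was 0.78 and spanned 0.39 to 1.06 without single libraries. Rescaled to the epithelium markers 0 of its 5 tested genes fell and 4 rose. *Kdr* is also 1 of the endothelium markers, of which 4 of the 5 listed for tumor cells were higher in both KLG4 libraries (summed 9.67 and 5.82 RPKM against 13.6 and 13.8), and its source was not tested.

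**Figure D5:**
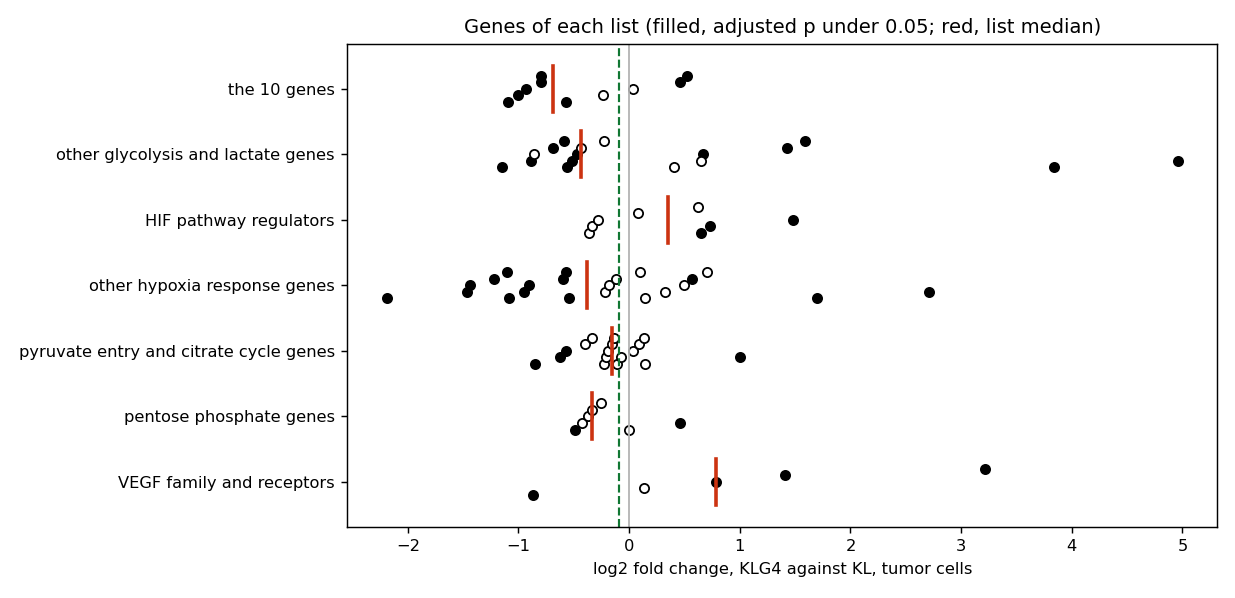
Log2 fold change of KLG4 against KL in tumor cells for every tested gene of 7 lists (points; filled, adjusted p under 0.05), with list medians in red and the median of all genes, −0.09, as a dashed line. The 10 genes centre on −0.68 and the HIF pathway regulators on 0.35, and single genes of the glycolysis list reach 4.96.

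In TRMs, the macrophages of the KLG4 tumors had more *Vegfa* mRNA, and the enzymes that fell in tumor cells did not pass the test. *Vegfa* was at 14.8 and 19.6 RPKM in KL and at 63.7 and 52.5 in KLG4, with no overlap (1.76 ± 0.21 on the log2 scale, adjusted p = 0.0359 by limma). It alone of the 10 genes was called, in a table where 1.8% of 10990 tested genes were called, 1.36% higher and 0.437% lower. Without KL replicate 2, 3 genes were called (*Vegfa*, *Hk2* and *Hif1a*), and without KLG4 replicate 2, 2 were (*Vegfa* and *Hk2*), in fits that called 23.3% and 3.4% of all tested genes higher. None of the 10 genes was called with TMM scaling, without the variance trend, or with libraries rescaled outside mitochondrial genes and their nuclear copies (adjusted p of *Vegfa* 0.0582, 0.094 and 0.0594 by limma). The median of the 10 genes was 0.37 and that of all tested genes 0.38, so the 10 genes as a list lay where the whole table lay.

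Another 3 genes had intervals above 0 but missed the adjusted threshold in TRMs, so that with *Vegfa* 4 of the 10 had an unadjusted p under 0.05, against 28.3% of all tested genes. *Hk2* was at 7.59 and 8.94 RPKM in KL and at 21.7 and 17.9 in KLG4 (1.25 ± 0.21, adjusted p = 0.0531 by limma). *Slc2a1* was at 7.25 and 5.80 against 11.3 and 14.2 (0.96 ± 0.24, adjusted p = 0.0816 by limma), and *Hif1a* at 22.5 and 25.5 against 38.9 and 46.2 (0.82 ± 0.18, adjusted p = 0.0698 by limma). With *Vegfa*, *Pgk1*, *Ldha* and *Pdk1*, these made 7 genes that lay higher in both KLG4 libraries, against 53.7% of all tested genes in TRMs. The estimates of *Pgk1*, *Ldha* and *Pdk1* were 0.38, 0.20 and 0.35. Without single libraries they spanned 0.20 to 0.57 for *Pgk1*, 0.044 to 0.36 for *Ldha* and 0.20 to 0.50 for *Pdk1*. *Aldoa*, at 158 and 173 against 163 and 179 RPKM, and *Pkm*, at 161 and 199 against 196 and 196, overlapped. *Bnip3* spread most in KLG4 TRMs, at 7.77 and 19.3 RPKM around the KL values of 11.7 and 13.4.

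Library scaling bears on these TRM values. Mitochondrially encoded genes took 13.2% and 9.17% of reads in KL TRMs and 1.43% and 2.402% in KLG4. After scaling by trimmed means (TMM), the median of all genes was 0.02, *Vegfa* stood at 1.38 with an adjusted p of 0.0582 by limma, and none of the 10 genes was called, while 4 of the 10 estimates were above 0 after rescaling outside mitochondrial genes and their nuclear copies, a choice added after the data were seen. *Vegfa*, *Hk2*, *Slc2a1* and *Hif1a* remained above 0 under each of the 10 alternative settings, at 1.37 to 1.76, 0.86 to 1.26, 0.57 to 0.97 and 0.43 to 0.82. No gene of the other 7 lists was called in TRMs, except that 14 of 68 were called higher without KL replicate 2, against 23.3% of all tested genes, and 1 without KL replicate 1 or KLG4 replicate 2. Marker sums differed between the TRM groups as well. Alveolar macrophage markers summed to 7991 and 7792 RPKM in KL and to 12104 and 11298 in KLG4, with 3 of 6 higher in both KLG4 libraries. Monocyte-derived macrophage markers summed to 39.5 and 34.7 in KL and to 76.8 and 88.3 in KLG4, with 5 of 6 higher, and *Vegfa* itself was at 211 RPKM in KL MDMs against 17.2 in KL TRMs. The sums were lower in KLG4 for epithelium (127 and 145 against 65.8 and 105), AT2 (145 and 152 against 27.2 and 59.6) and neutrophil markers (224 and 135 against 111 and 76.1), and no listed marker was at 0. The part of these markers and of sex in the *Vegfa* difference was not tested.

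In MDMs, none of the 10 genes passed the test between genotypes. No gene of the table had an adjusted p under 0.05 in limma (0% of 10475 tested), 6.74% had an unadjusted p under 0.05, and none of the 10 genes was among these. *Vegfa* was again the largest estimate, at 169 and 254 RPKM in KL and at 375 and 292 in KLG4, with no overlap (0.68, 95% interval −0.08 to 1.43, adjusted p = 0.679 by limma). *Hif1a* was at 77.2 and 60.7 in KL and at 96.3 and 78.5 in KLG4, which were also apart (0.34, adjusted p = 0.691 by limma). *Aldoa* lay lower in KLG4, at 100.2 and 109 RPKM against 115 and 129 (−0.22, adjusted p = 0.712 by limma). Without single libraries the estimates spanned 0.38 to 0.97 for *Vegfa*, 0.17 to 0.52 for *Hif1a* and −0.30 to −0.14 for *Aldoa*.

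The remaining 7 genes overlapped between genotypes in MDMs, where 44.5% of all tested genes did not. *Pgk1* was nearly the same in all 4 libraries, at 37.7 to 41.3 RPKM (−0.02, 95% interval −0.51 to 0.46), and *Ldha* ranged from 74.0 to 87.9 (−0.02, 95% interval −0.54 to 0.50). The intervals of *Ldha* and *Pgk1* therefore did not include a fall of the size estimated in tumor cells. Whether tumor cells and MDMs differed was not tested, since their tables were normalised apart. *Hk2* was at 12.3 in KL replicate 2 and at 23.9 to 28.6 in the other 3 libraries, and *Pdk1* at 2.73 in that library and at 0.80 to 1.32 in the others. Without KL replicate 2 the estimate of *Hk2* went from 0.42 to −0.19 and that of *Pdk1* from −0.28 to 0.55. Without KL replicate 1 *Hk2* was 1.03 and called higher, and *Pdk1* was −1.11 and called lower. Those genes followed the library that stood apart, and no direction is drawn for them. No gene of the other 7 lists was called, and *Epas1*, named after its values were seen, alone had an unadjusted p under 0.05 (−0.999, unadjusted p = 0.0401, adjusted p = 0.679 by limma). Without KL replicate 1, which leaves the library that stood apart as the lone KL library, 3 of 63 genes of these lists were called higher and 14 lower, and 25.5% of all tested genes were called.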

How the data were processed

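RNA-seq of 12 libraries in 6 groups was used, grouped by sample titles, and the other 5 samples of the study were left out here. Poly(A) RNA was, per the labels, sequenced in pairs without strand, trimmed (Trim Galore 0.6.4), aligned (HISAT2 2.0.5, GRCm38) and counted per gene (featureCounts 2.0.0). The authors deposited RPKM values, in a separate table per population, and gene lengths (a number of bases, unit other) with the tumor cell table. The tables also held the authors' own fold changes and p-values, which were not used. Depth was recovered from RPKM times length, which gave whole reads within 0.05 for 100% of values checked. It sets the counting error, and libraries of fewer reads measure low genes less exactly.

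Here log2(RPKM + 0.1) was fitted with limma 3.58.1 (R 4.3.3) with a mean-variance trend, per table, over genes of at least 1 RPKM in at least 2 of 4 libraries, two-sided, with Benjamini-Hochberg adjustment at 0.05. Fold changes on this scale understate changes of low genes. The code was tested on simulated data. The 10 genes and all lists were chosen with earlier results of these data known. From each other list the text names, per population, up to 4 called genes of largest change, plus paralogs, or the exceptions stated. The alternatives were pseudocounts of 1 and 0.01, no filter, a mean of at least 5 RPKM, quantile and TMM scaling, rescaling outside mitochondrial genes, no trend, a replicate block, and leaving out each library. Rescaling also outside 6 nuclear copies, and to epithelium markers, was added after the data were seen. Correlations of same-numbered libraries' deviations (0.019 in tumor cells, −0.060 in TRMs and 0.054 in MDMs) did not pair them. The full genotype of the mice is not reported here.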

Additional observations from a re-analysis of the deposited data

Results flagged for a closer look

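In 5 of 30 comparisons between populations (10 genes, 3 pairs of populations), both KLG4 libraries lay on one side of both KL libraries in one population and on the other side in another. Of these, 4 lay between tumor cells and TRMs, where 24.5% of all genes tested in both did the same, 1 between tumor cells and MDMs (12.8%) and 0 between TRMs and MDMs (7.18%). The difference between populations was not tested, since the tables were normalised apart. *Vegfa* lay lower in KLG4 tumor cells and higher in KLG4 TRMs and MDMs, so that its log2 fold change in tumor cells was −2.68 relative to that in TRMs and −1.61 relative to that in MDMs. *Pgk1* (−1.48), *Ldha* (−1.21) and *Pdk1* (−0.58) lay lower in KLG4 tumor cells and higher in KLG4 TRMs. The TRM estimates of *Pgk1* and *Pdk1* fell below 0 under the scalings given in the next part, as did that of *Ldha*, while that of *Vegfa* stayed at 1.37 or more.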

How the results depend on the processing

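Each table was refitted under 10 alternative settings and, for tumor cells, also after rescaling to epithelium markers, and without each library in turn. In tumor cells, the number of the 10 genes called higher went from 2 to 0 without the variance trend and to 1 with the replicate number as a block, and spanned 0 to 3 without single libraries; the number called lower spanned 2 to 6 without single libraries and was 0 after rescaling to epithelium markers. The call lost with the block was that of *Hif1a* (adjusted p = 0.0508 by limma), and the block changed the call of no gene that fell. The median of the 10 genes there was −0.80 with a mean of at least 5 RPKM, −0.57 outside mitochondrial genes and nuclear copies, −0.72 to −0.56 without single libraries, and 0.32 after rescaling to epithelium markers, where *Aldoa* (0.20), *Pkm* (0.43), *Pdk1* (0.72), *Vegfa* (0.074) and *Bnip3* (0.20) turned positive. *Slc2a1* ranged from −0.23 to 0.29 without single libraries.

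In TRMs, 2 of the 10 genes were called higher with a pseudocount of 1 and 3 with a mean of at least 5 RPKM. With the replicate block 2 were called, as *Hk2* joined (adjusted p = 0.0424 by limma). TMM scaling, rescaling outside mitochondrial genes and nuclear copies, and leaving out the trend each gave 0. The share of all tested genes called under these settings is not given here, so the counts do not set these genes apart from the whole table. The adjusted p of *Vegfa* by limma ranged from 0.0155 to 0.094 over the alternatives. The median was 0.0059 with quantile scaling, −0.0025 with TMM, −0.018 outside mitochondrial genes and nuclear copies, and 0.21 to 0.56 without single libraries. *Aldoa* turned to −0.15 with quantile scaling, −0.33 with TMM, −0.10 outside mitochondrial genes and −0.35 outside these and nuclear copies. In the same order *Pkm* turned to −0.0542, −0.243, −0.0118 and −0.259. *Ldha* turned to −0.0577 with quantile scaling, −0.17 with TMM and −0.19 outside mitochondrial genes and nuclear copies, *Pdk1* to −0.073, −0.0141 and −0.0295, and *Pgk1* to −0.0065 in the last only. Without single libraries *Aldoa* spanned −0.0239 to 0.11, *Pkm* −0.0184 to 0.28 and *Bnip3* −0.68 to 0.62.

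In MDMs, 0 or 1 genes were called in either direction without single libraries and 0 otherwise. *Pgk1* was 0.016 with quantile scaling and 0.0114 with TMM, *Ldha* 0.0092 with TMM, and *Bnip3* −0.0235 outside mitochondrial genes and −0.0559 outside these and nuclear copies. Without single libraries *Slc2a1* spanned −0.15 to 0.41, *Hk2* −0.19 to 1.03, *Pgk1* −0.0871 to 0.0449, *Pkm* −0.10 to 0.32, *Ldha* −0.15 to 0.10, *Pdk1* −1.11 to 0.55 and *Bnip3* −0.32 to 0.33. The causes were not tested. Whether libraries with the same replicate number came from the same mice was not tested, and with 2 libraries a genotype a difference that missed the threshold was not shown to be absent.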
